A study of Mus musculus with 8 samples.

Results

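Thermogenic fat genes are those by which brown and beige adipocytes are recognised and by which they make heat. Of the 10 genes chosen by name for this family, 9 had a probe set that carried their symbol alone and were read here, out of 18820 genes measured. They are Ucp1, Ppargc1a, Prdm16, Dio2, Elovl3, Otop1, Cited1, Tmem26 and Ppara; Adrb3 was not analysed here. Where a gene had several such probe sets, the one with the highest mean over all 8 arrays was used.

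White adipose tissue came from 8 male mice, 1 array each, after 5 weeks on the high fat diet D12492. In 4 mice, called Sel1l-/- as in the labels, a floxed Sel1l had been deleted by a Cre that the adiponectin promoter drives, so in adipocytes, white and brown, rather than in the vascular, immune and stromal cells of the tissue. The 4 controls were wildtype (WT) mice, and the sources used here do not say whether they carried floxed alleles or Cre. The strain of all 8 was C57BL/6 with the N and J substrains mixed. Neither age nor fat depot is stated there. Sel1l encodes the adapter of an ER ubiquitin ligase complex.

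In brown and beige adipocytes, noradrenaline acts through beta-adrenergic receptors and cAMP, which frees fatty acids and switches on Ucp1, Dio2 and Ppargc1a. Ucp1 lets protons re-enter the mitochondrial matrix without making ATP, so that respiration yields heat. White fat holds few such cells, more of them after cold, and more in subcutaneous than in visceral depots.

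The textbook cAMP targets Ucp1, Ppargc1a and Dio2 are the members whose cAMP response is best known, so their promoters are shown. Each runs from 250 bases before to 50 bases after the start of the transcript, 5′ to 3′ on the strand of the gene, from RefSeq on build GRCm38.p6. Capitals mark TGACG, the core of the cAMP response element, on either strand.

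Ucp1 promoter, chr8:83290098-83290397, plus strand: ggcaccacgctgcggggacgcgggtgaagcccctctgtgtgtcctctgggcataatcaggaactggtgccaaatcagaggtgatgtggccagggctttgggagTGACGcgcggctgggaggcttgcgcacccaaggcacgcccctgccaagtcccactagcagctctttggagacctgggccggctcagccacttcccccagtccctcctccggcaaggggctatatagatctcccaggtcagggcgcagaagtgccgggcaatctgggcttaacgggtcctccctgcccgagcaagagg

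Ppargc1a promoter, chr5:51567676-51567975, minus strand: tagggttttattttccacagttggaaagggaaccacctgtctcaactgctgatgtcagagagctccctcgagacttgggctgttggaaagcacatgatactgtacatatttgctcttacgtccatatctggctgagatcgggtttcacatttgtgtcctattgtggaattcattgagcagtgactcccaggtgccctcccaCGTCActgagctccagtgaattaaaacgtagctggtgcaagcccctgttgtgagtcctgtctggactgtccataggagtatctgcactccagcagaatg

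Dio2 promoter, chr12:90738989-90739288, minus strand: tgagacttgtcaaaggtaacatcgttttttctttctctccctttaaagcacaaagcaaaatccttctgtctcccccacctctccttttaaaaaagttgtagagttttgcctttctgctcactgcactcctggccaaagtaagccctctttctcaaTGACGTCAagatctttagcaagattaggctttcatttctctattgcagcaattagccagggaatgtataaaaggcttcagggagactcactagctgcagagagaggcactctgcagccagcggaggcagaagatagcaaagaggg

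The full element TGACGTCA, searched on both strands, lay in the Dio2 window with its first base at position -95, counted from the transcript start, and it contains the core on both strands. The core alone began at position -147 in Ucp1 and at -49 in Ppargc1a. Of the 10 promoters found for 8 members (Elovl3 and Adrb3 had none in the table), 5 held the core and 1 the full element, against 20.8% and 1.79% of all 32851 promoters. TCAAGGTCA, the element of the estrogen-related receptors, was in none of the 10 and in 0.423% of all. A match is a description of letters, not of binding.

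No thermogenic fat gene passed the test of Sel1l-/- against WT tissue, at an adjusted p under 0.05 over all genes, where 1.72% of all genes passed. The highest difference was that of Elovl3, 1.67-fold higher in Sel1l-/- mice, and the lowest that of Ppargc1a, 1.62-fold lower. Their unadjusted limma p-values, 0.00316 and 0.0348, were the only ones of the 9 under 0.05, beside 2823 of all 18820 genes. Of the 9 log2 fold changes 5 were positive and 4 negative, with a median of 0.10, beside -0.0037 over all genes. On 2 of the 9 (22.2%), Elovl3 and Cited1, the arrays of the groups did not overlap, beside 10.3% of all genes. All values below are log2 expression, a level, or differences of it, Sel1l-/- minus WT, given as log2 fold changes.

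**Figure D1:**
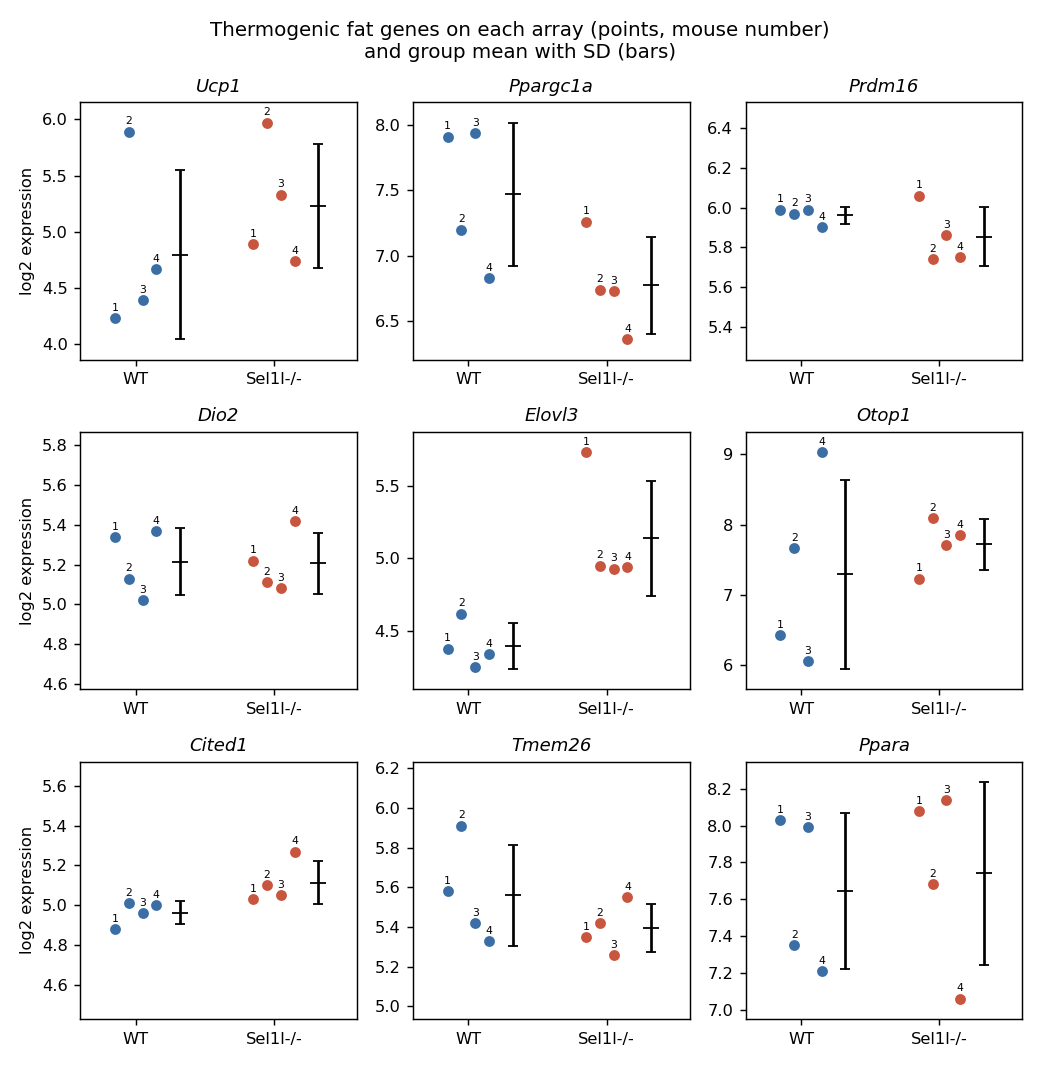
Log2 expression (y axis) of the 9 thermogenic fat genes in 4 WT and 4 Sel1l-/- mice. Each point is an array with its mouse number, the replicate number of its title, and the bar is the group mean with its SD. The groups are apart on Elovl3 and, by a narrow margin, on Cited1, while Ucp1 and Otop1 spread widely within the groups.

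Ucp1, the uncoupling protein itself, read 4.23, 5.89, 4.39 and 4.67 in WT mice 1 to 4 and 4.89, 5.97, 5.33 and 4.74 in Sel1l-/- mice 1 to 4. Mouse 2 was the highest of its group in both genotypes, and the groups overlapped over most of their range. The means were 4.79 ± 0.75 and 5.23 ± 0.55 (SD, n = 4 each). The log2 fold change was 0.44 (standard error 0.39, 95% interval -0.45 to 1.33, limma adjusted p = 0.667), so that anything from a lower level to a 2.52-fold higher one lies within the interval. The difference ranged from 0.19, without Sel1l-/- 2, to 0.81, without WT 2. Its mean over the 8 arrays lay below every array's median over its probe sets (6.05 to 6.14), and whether it stood above background was not tested.

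Elovl3, an elongase that makes very long chain fatty acids and is induced in brown fat by cold, was the member with the clearest separation. It read 4.38, 4.62, 4.25 and 4.34 in WT mice and 5.73, 4.95, 4.93 and 4.94 in Sel1l-/- mice. All 4 Sel1l-/- arrays lay above all 4 WT arrays, and mouse 1 stood well above the other 3 Sel1l-/- mice. The means were 4.40 ± 0.16 and 5.14 ± 0.39 (SD, n = 4), which differed by 0.74 (standard error 0.18, interval 0.32 to 1.16). The limma adjusted p was 0.0980, above the threshold. Leaving out Sel1l-/- 1 lowered the difference to 0.55 and the adjusted p to 0.0574, the lowest of the alternatives, whose highest was 0.347. The WT mean was close to the lower quartile of all probe sets (4.33 to 4.37), so the gene was dim in both groups.

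The titles number the replicates of each group 1 to 4. Over all genes, mice of the same number deviated together for numbers 1, 3 and 4, and only weakly for number 2 (r = 0.107). The replicate number is called the mouse number here, and the labels do not say that it marks matched mice. With that number as a block, Ppargc1a fell past the threshold (log2 fold change -0.70 with a standard error of 0.13 and an adjusted p of 0.0481) and was the 1 member to do so, 11.1% of the 9, where 3.85% of all genes passed. Ppargc1a encodes PGC-1alpha, the coactivator that drives mitochondrial biogenesis and Ucp1 transcription. It read 7.91, 7.20, 7.94 and 6.83 in WT mice and 7.26, 6.74, 6.73 and 6.36 in Sel1l-/- mice. The groups overlapped, since WT 4 lay below Sel1l-/- 1, but in pairs of the same number Sel1l-/- mice were lower every time, with differences of -0.64, -0.47, -1.21 and -0.48. Without the block the means were 7.47 ± 0.54 and 6.77 ± 0.37 (SD, n = 4), with a standard error of 0.28, an interval of -1.34 to -0.06 and an adjusted p of 0.287; over all alternatives that p ran from 0.0481 to 0.923.

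The blocked call of Ppargc1a was lost when both mice of any 1 number were left out (adjusted p = 0.175 without number 1, 0.0757 without 2, 0.0790 without 3 and 0.0808 without 4), which also leaves fewer arrays; these fits were added after seeing the data. The labels' mouse codes hold a letter and a number that the sources used here do not explain. Mice that share a replicate number differ in both the letter and the number of this code, so the code does not mark them as pairs. Only letter F holds both genotypes, since WT 1 to 3 are of letter E and Sel1l-/- 3 and 4 of letter G. A fit with the letter as a block therefore compares WT 4 with Sel1l-/- 1 and 2 alone. In the mice of letter F, WT 4 with Sel1l-/- 1 and 2, the difference was 0.17, the opposite direction, while in the numbers 5, 7 and 9 it was -0.64, -0.39 and -1.20. The dimmer probe set of the gene read 7.29, 6.52, 7.29 and 6.04 in WT and 6.68, 6.22, 5.86 and 5.82 in Sel1l-/- mice. It differed by -0.64, and WT 4 and Sel1l-/- 4 were again the lowest of their groups.

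Markers of other cell types moved beside Ppargc1a. The mean of 8 macrophage markers was 9.85, 10.66, 9.82 and 10.79 in WT 1 to 4 and 10.32, 10.75, 10.71 and 11.19 in Sel1l-/- 1 to 4. WT 4 and Sel1l-/- 4, with the highest macrophage level of their groups, had the lowest Ppargc1a, and WT 1, WT 3 and Sel1l-/- 1, with low macrophage levels, had high Ppargc1a. Cd163 alone of these markers ran the other way in mouse 4, lowest in WT 4 (8.21) and in Sel1l-/- 4 (8.36). Mrc1 was highest in WT 2 (10.97) among the WT mice. The mean of 5 mesothelial markers was 10.08, 9.64, 10.33 and 9.41 in WT and 9.50, 9.61, 9.77 and 9.10 in Sel1l-/- mice. It was lower in Sel1l-/- mice in all 4 same-numbered pairs, and its order among the WT mice was that of Ppargc1a, with mouse 4 lowest in both groups. Among Sel1l-/- mice the order differed, with this mean highest in mouse 3 and Ppargc1a highest in mouse 1. Wt1 alone of the list was lowest in mouse 1 of both groups (7.85 in WT and 7.44 in Sel1l-/-). None of the macrophage, mesothelial or 7 measured adipocyte markers passed the test without the block. With the block, the fit in which Ppargc1a passed, Adipoq of the adipocyte markers (log2 fold change -0.56, adjusted p = 0.0204) and Wt1 of the mesothelial markers (-0.44, 0.0382) fell, as did Tek of the endothelial (-0.35, 0.0437) and Cd79a of the lymphocyte markers (-0.64, 0.0496). The summed signal of the macrophage markers on the linear scale ran from 12470 to 20149 in WT and from 14855 to 25272 in Sel1l-/- mice. That of the adipocyte markers ran from 45543 to 53165 and from 37220 to 47188. Of 6 endothelial markers 1, Pecam1, fell also without the block (log2 fold change -0.39, adjusted p = 0.0290), and the list mean did not overlap between the groups, at 10.41 to 10.64 in WT and 9.90 to 10.24 in Sel1l-/- mice. Their part in the result was not tested. In bulk tissue, fewer cells of a type and less RNA per cell cannot be told apart.

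**Figure D2:**
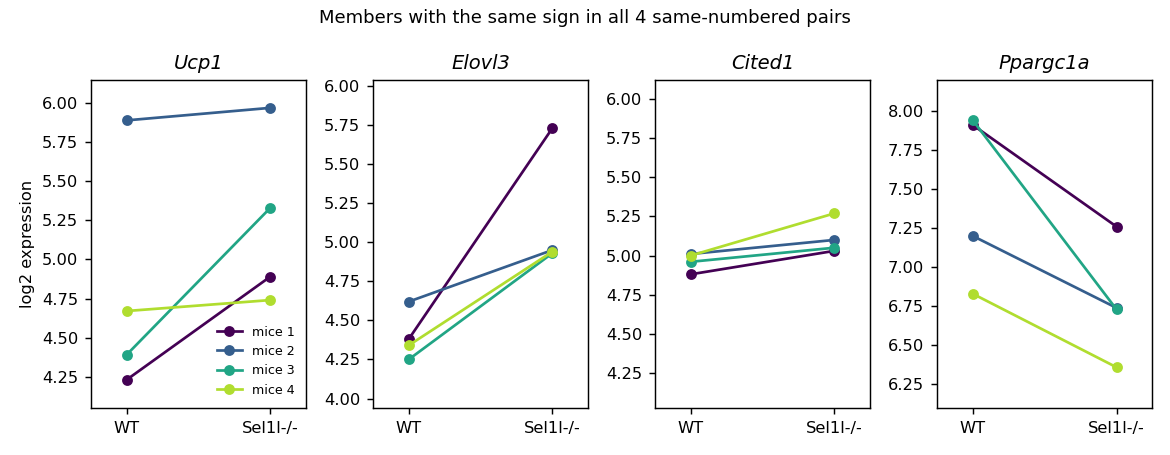
Log2 expression (y axis) of 4 thermogenic fat genes, with a line from the WT to the Sel1l-/- mouse of the same number; all 4 panels span the same log2 range. Ucp1, Elovl3 and Cited1 were higher and Ppargc1a lower in all 4 pairs, although mice 2 and 4 differed little on Ucp1.

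Across same-numbered pairs, 4 of the 9 members had 1 sign in all 4 pairs (44.4%), beside 30.1% of all genes. Ucp1 was higher by 0.66, 0.09, 0.94 and 0.08 in pairs 1 to 4. Elovl3 was higher by 1.35, 0.32, 0.69 and 0.61. The differences of Ucp1 lay close to 0 in pairs 2 and 4, those of Elovl3 in none. With the mouse number as a block, limma gave Ucp1 an interval of 0.06 to 0.83 (adjusted p = 0.181). The blocked intervals of Elovl3 and Cited1 were 0.35 to 1.13 and 0.0 to 0.3 (adjusted p = 0.0634 and 0.219). None of these passed the threshold. Within the mouse code numbers 5, 7 and 9 Ucp1 differed by 0.88, -1.07 and 1.59, with the sign turned in number 7, and by 0.76 in letter F. Elovl3 differed by 0.58, 0.71 and 0.70, and by 1.0 in letter F.

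Among the other regulators, Prdm16, the zinc finger protein that commits precursors to the brown fate, read 5.99, 5.97, 5.99 and 5.90 in WT and 6.06, 5.74, 5.86 and 5.75 in Sel1l-/- mice. Except for Sel1l-/- 1 the Sel1l-/- mice lay below all WT mice. The log2 fold change was -0.11 (interval -0.29 to 0.07, adjusted p = 0.594), and its dimmer probe set differed by -0.18. Cited1, a transcriptional coregulator and marker of beige adipocytes, read 4.88, 5.01, 4.96 and 5.00 in WT and 5.03, 5.10, 5.05 and 5.27 in Sel1l-/- mice. The gap between the groups was narrow, and the log2 fold change was 0.15 (interval -0.01 to 0.31, adjusted p = 0.363).

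Ppara, the nuclear receptor for fatty acids that drives their oxidation, read 8.03, 7.35, 7.99 and 7.21 in WT and 8.08, 7.68, 8.14 and 7.06 in Sel1l-/- mice. In both groups mice 1 and 3 were high and mouse 4 was lowest, and the groups overlapped almost fully. The log2 fold change was 0.10 (interval -0.54 to 0.73, adjusted p = 0.912). Ppara and Ppargc1a had the same pooled SD within groups, 0.47, wider than 96.5% of all genes.

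Dio2, the deiodinase that turns thyroxine into the active hormone inside the cell, read 5.34, 5.13, 5.02 and 5.37 in WT and 5.22, 5.11, 5.08 and 5.42 in Sel1l-/- mice. The groups covered nearly the same range, with a log2 fold change of -0.01. The interval of -0.25 to 0.23 allows a level 1.18-fold higher at most (adjusted p = 0.984). Tmem26, a surface marker of beige adipocytes, read 5.58, 5.91, 5.42 and 5.33 in WT and 5.35, 5.42, 5.26 and 5.55 in Sel1l-/- mice. WT 2 was the highest of all, and the log2 fold change was -0.17 (interval -0.46 to 0.12, adjusted p = 0.607), but -0.05 without WT 2.

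**Figure D3:**
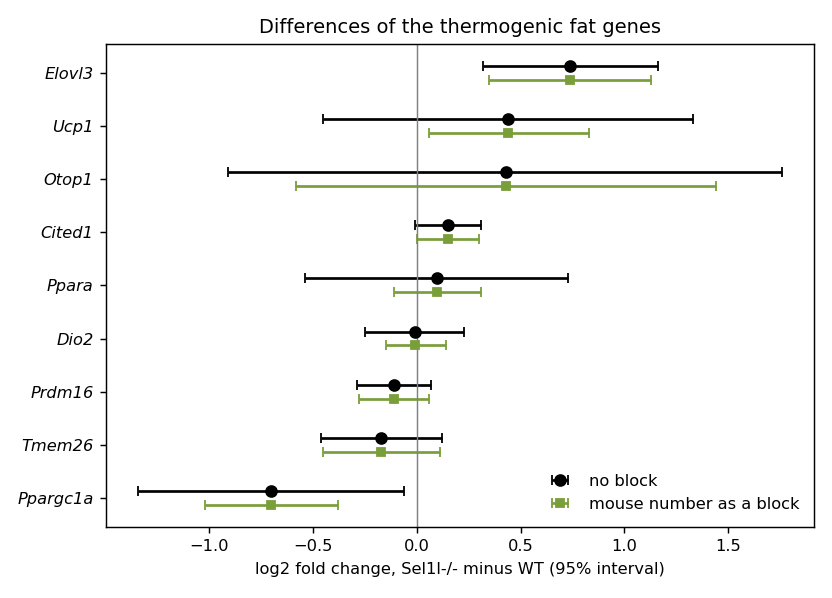
Log2 fold change, Sel1l-/- minus WT (x axis), of each thermogenic fat gene with its 95% interval, without (circles) and with (squares) the mouse number as a block. Elovl3 and Ppargc1a lie at the ends, and the intervals of Ucp1, Ppargc1a and Ppara narrow most in proportion under the block.

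Otop1, a proton channel expressed in brown fat, varied more between mice than any other member. It read 6.42, 7.66, 6.05 and 9.03 in WT and 7.23, 8.09, 7.71 and 7.85 in Sel1l-/- mice. The Sel1l-/- mice lay within the span of the WT mice, of which mouse 4 was highest and mouse 3 lowest. The log2 fold change of 0.43 had an interval of -0.91 to 1.76 (adjusted p = 0.794). It was 1.01 without WT 4 and 0.02 without WT 3. With a block for the code's letter it was -1.38. The pooled SD within groups, 0.99, exceeded that of 99.7% of all genes.

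The genes whose deviations from the group means came closest to those of Otop1 over the 8 arrays were Ccn5, St14, Mmp12, Trem2 and Sh2d1b1, with root mean square differences of 0.23, 0.29, 0.32, 0.32 and 0.35, against 0.86 for Otop1 itself. Trem2 is a receptor of lipid-associated macrophages and Mmp12 the macrophage elastase, Ccn5 encodes a secreted matricellular protein, and St14 a membrane serine protease. Trem2, which was also in the macrophage marker list, read 8.31, 9.84, 8.03 and 10.47 in WT and 9.27, 10.19, 10.19 and 10.81 in Sel1l-/- mice. As on Otop1, WT 4 was the highest and WT 3 the lowest of the WT mice, and Sel1l-/- 1 was the lowest of its group. None of the 5 passed the threshold between the groups.

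**Figure D4:**
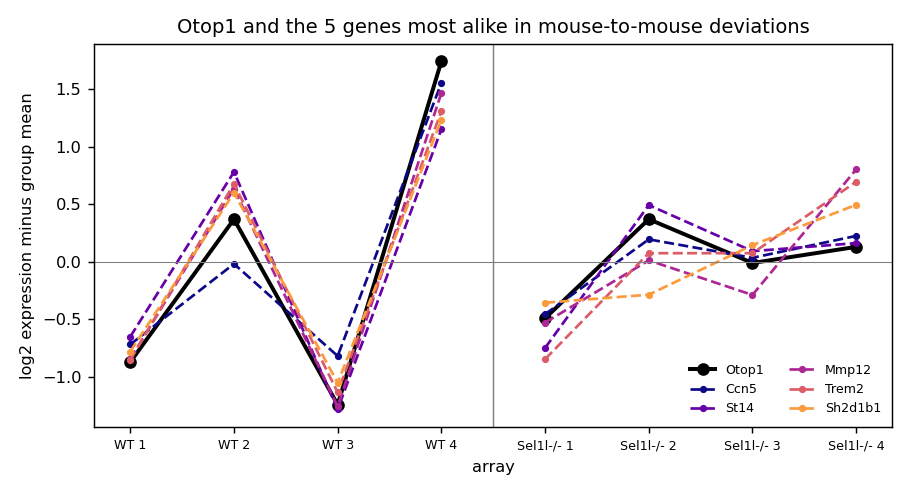
Deviation of log2 expression from the group mean (y axis) on the 8 arrays (x axis) for Otop1 (solid) and the 5 genes most alike to it (dashed); lines join the mice of a group for reading only. All 6 genes are low in WT 1 and WT 3, high in WT 4 and low in Sel1l-/- 1.

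Of the 18 measured relatives of the members, none passed the limma threshold, beside 1.72% of all genes, and none had groups without overlap, beside 10.3%. At these shares a list of this size need hold no such gene, so the counts set the relatives apart from other genes in neither respect. None had an unadjusted p under 0.05 either, beside 2823 of all 18820 genes. Among the uncoupling proteins Ucp3 differed by -0.05 (interval -0.41 to 0.32), a sign that turned with 1 array left out. The coactivators related to Ppargc1a, Ppargc1b and Pprc1, differed by -0.13 and 0.12, and Mecom, the relative of Prdm16, by -0.25 (adjusted p = 0.519). Of the other elongases, Elovl1 differed by 0.11 (adjusted p = 0.470), Elovl2 by -0.04, Elovl4 by 0.29, Elovl5 by 0.06, Elovl6 by 0.04 and Elovl7 by -0.61 with an interval of -2.13 to 0.91. The deiodinases Dio1 and Dio3 differed by 0.00 and 0.15, Otop2 and Otop3 by 0.07 and -0.02, Cited2 and Cited4 by -0.01 and 0.04, and the receptors Ppard and Pparg by 0.01 and -0.18. With the arrays centred on their medians Dio1, Cited4 and Ppard turned negative. The adjusted p of each of the 18 was at least 0.470.

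Around the members, 143 measured genes of 8 lists on heat production and its control held 3 that rose and 1 that fell, 2.80% in all, beside 1.04% of all genes higher and 0.685% lower. With the mouse number as a block, 5 rose and 10 fell, or 10.5%, beside 3.85%. The median log2 fold change of the 143 was -0.01.

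Of 24 other genes of brown and beige adipocytes, 1 rose (4.17%), and of 29 transcriptional regulators likewise 1 (3.45%), beside 1.04% of all genes. The first was Fgf21, a hormone that promotes browning, which read 5.21, 5.11, 5.25 and 5.12 in WT and 5.90, 5.60, 5.62 and 5.74 in Sel1l-/- mice. The groups did not overlap, and Fgf21 was 1.46-fold higher (log2 fold change 0.54 with a standard error of 0.08; limma adjusted p = 0.0159). The regulator was Esrrg, which encodes the estrogen-related receptor gamma, a driver of oxidative genes in brown fat and muscle. It read 5.35, 5.21, 5.18 and 5.49 in WT and 5.82, 5.95, 5.89 and 5.69 in Sel1l-/- mice, again without overlap. Esrrg rose 1.44-fold, from 5.31 ± 0.14 to 5.83 ± 0.11 (SD, n = 4; log2 fold change 0.53, adjusted p = 0.0287), beside the lower mean of its coactivator Ppargc1a. The Esrrg call was lost without WT 1, 2 or 3 or Sel1l-/- 1, 2 or 3 (adjusted p = 0.0749 to 0.0970), and with the arrays centred on their medians (0.0502). That of Fgf21 was lost without WT 1 or WT 2 (0.0561 and 0.0590). Without variance moderation both calls were lost (adjusted p = 0.0778 for Esrrg and 0.0521 for Fgf21). All values of both genes lay below every array's median over its probe sets (6.05 to 6.14). Whether they stood above background was not tested. With the block, Acot11, a thioesterase of brown fat, and Pdk4, a brake on pyruvate oxidation, rose as well among the brown and beige adipocyte genes (log2 fold changes 0.63 and 0.65, adjusted p = 0.0248 and 0.0469).

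In the path from adrenergic receptors to cAMP and lipolysis, 1 of 19 measured genes fell (5.26%, beside 0.685% of all genes) and none rose. This was Pde4b, a phosphodiesterase that breaks down cAMP, which read 7.38, 7.38, 7.71 and 7.65 in WT and 7.07, 6.80, 7.02 and 6.81 in Sel1l-/- mice. All Sel1l-/- mice lay below all WT mice, by 1.52-fold on average (-0.60 on the log2 scale, with a standard error of 0.10 and an adjusted p of 0.0299), and leaving out any 1 array ended the call (adjusted p = 0.0553, without Sel1l-/- 1, to 0.104, without Sel1l-/- 2), as did a fit without moderation (0.0934). With the block, Arrb1, an arrestin that quenches receptors, and Adcy6, a cyclase that makes cAMP, fell as well (log2 fold changes -0.36 and -0.34, adjusted p = 0.0363 and 0.0469). These and the other genes named from the block alone were chosen after their values were seen.

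Of 22 measured targets of PPARalpha, 17 had positive differences, beside 9186 of all 18820 genes. In this list 2 rose (9.09%), beside 1.04% of all genes. They were Fgf21, counted above already, and Hadha, a subunit of the trifunctional protein of beta-oxidation. Hadha rose 1.22-fold (log2 fold change 0.28, adjusted p = 0.0404, but 0.0607 with the block). Its call was lost on leaving out any array but WT 4, with adjusted p up to 0.129 without Sel1l-/- 2, and with the arrays centred on their medians (0.0901). With the block Acot2, a mitochondrial acyl-CoA thioesterase, and Pdk4, which is in this list also, rose too (log2 fold changes 0.88 and 0.65, adjusted p = 0.0381 and 0.0469). The median of the list was 0.10, and the receptor Ppara itself differed by 0.10.

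Transcriptional regulators that fell with the block were Nrip1, a corepressor of Ucp1, Irf4, a partner of PGC-1alpha in thermogenic transcription, and Rxra, the partner of the PPARs. Their log2 fold changes were -0.50, -0.44 and -0.32 (adjusted p = 0.0283, 0.0293 and 0.0362 with the block, and 0.194, 0.239 and 0.264 without it). These 3 comprise a repressor as well as activators of thermogenic transcription. Of 24 inducers and brakes of browning, Fgf21 alone rose (4.17%, beside 1.04% of all genes). With the block Adipoq, Vegfa and Bmp4 had log2 fold changes of -0.56, -0.48 and -0.58 and fell past the threshold (adjusted p = 0.0204, 0.0457 and 0.0496). Adipoq encodes adiponectin, Vegfa an angiogenic factor and Bmp4 a growth factor that acts on adipocyte precursors. With the number of the code as a block, none of the 143 genes passed.

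Of 7 genes of thyroid hormone handling none passed, although Thrsp, a lipogenic gene that thyroid hormone induces, read 12.25, 11.78, 11.79 and 10.97 in WT and 10.77, 10.60, 10.63 and 10.12 in Sel1l-/- mice. The groups did not overlap, and the log2 fold change of -1.17 had an adjusted p of 0.0659, and 0.00953 with the block. The receptor Thrb differed by -0.24 (adjusted p = 0.632). Other routes of heat production, such as calcium and creatine cycling, held none of 17 genes past the threshold in either fit. The calcium pump Atp2a2 and the ADP/ATP carrier Slc25a4 had the lowest p there, with log2 fold changes of 0.18 and -0.17 (adjusted p = 0.297 and 0.326).

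**Figure D5:**
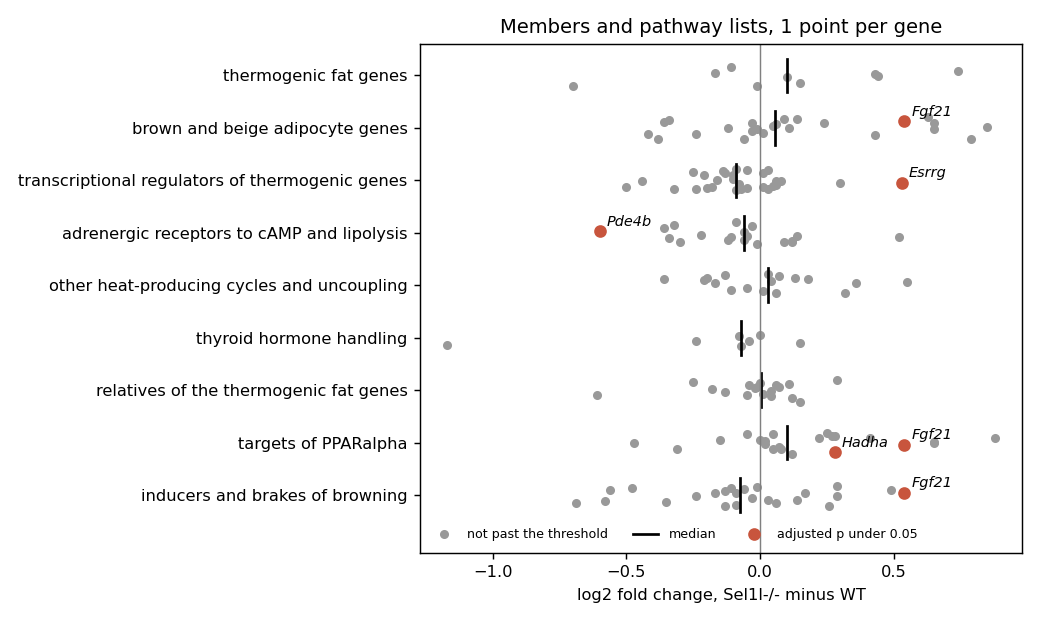
Log2 fold change, Sel1l-/- minus WT (x axis), of each measured gene in the thermogenic fat genes and the 8 pathway lists; a gene in several lists appears in each. Red points passed an adjusted p of 0.05, and the black bar is the list median, between -0.09 and 0.10.

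The tissue carried white fat markers at the top of the scale, with a mean of 7 adipocyte genes between 12.34 and 12.87, and mesothelial markers between 9.41 and 10.33 in WT and 9.10 and 9.77 in Sel1l-/- mice. The mean of 9 skeletal muscle markers was 5.15 to 5.25 in WT and 5.07 to 5.22 in Sel1l-/- mice, with none past the threshold. Means of the other lists were 5.77 to 6.68 for lymphocytes, 10.12 to 10.49 for fibroblasts, 4.55 to 4.77 for nerve and 3.88 to 4.07 for epididymis, with no gene past the threshold without the block. Correlations between arrays over all probe sets lay between 0.982 and 0.994. As a check of the labels, Sel1l averaged 10.57 ± 0.07 in the WT mice against 9.78 ± 0.21 with the deletion (SD, n = 4), a fall of 1.73-fold (adjusted p = 0.0109) without overlap. The sources used here do not say where its probes lie relative to the deleted part. Without the block, the p-values weigh the group difference against the spread among 4 mice per group, moderated over all genes. With the block, they weigh it against the spread of the differences between same-numbered mice. The number of mice limits the precision of both.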

How the data were processed

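RNA of white adipose tissue was measured on 1-colour arrays, 1 per mouse. The deposited values are log2 expression per probe set; per the submitters' processing notes the authors used RMA, without a version in the sources used here, and the range of 1.72 to 13.9 fits that log2 scale. RMA equalises the arrays' distributions, so a shift of most transcripts would not show. Array medians still lay higher with the deletion (6.10 to 6.14) than in WT mice (6.05 to 6.08).

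Of 35556 probe sets 21218 carried 1 gene symbol in the platform annotation, 1881 several and 12457 were unnamed. The brightest single-gene probe set per gene gave 18820 genes. Limma 3.58.1 (R 4.3.3; lmFit, eBayes, prior degrees of freedom 2.60) gave a two-sided test, p-values adjusted by Benjamini-Hochberg across the 18820 genes, a threshold of 0.05 and 95% intervals, and was tested on simulated data. Figures were drawn with matplotlib 3.10.9 in Python 3.11.15. The members and lists were chosen with earlier results of these data known. Named genes were the members, their relatives, Sel1l, and per list up to 4 genes past the threshold or the 2 with the smallest p; the genes alike to Otop1 were sought for the member with the largest SD within groups among those brighter than the median gene.

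Over all genes, departures from the group mean correlated between mice sharing a number (r = 0.518, 0.107, 0.363 and 0.524 for numbers 1 to 4). The number in the titles was used as a block in a second fit. What it marks is not stated in the labels, and same-numbered mice share neither the letter nor the number of the mouse code. Mice of different numbers correlated at -0.489 to 0.328. The value for number 2 lies within that range, and WT 2 correlated more with Sel1l-/- 4 (0.327) than with Sel1l-/- 2. Alternatives were the letter and number of the mouse code as blocks, median centring, a filter on dim genes, mean probe sets, other moderation, array weights and each array left out.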

Additional observations from a re-analysis of the deposited data

Results flagged for a closer look

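In groups of 4 arrays, a mouse was noted where the gap to its nearest neighbour, as a share of the range of the group, exceeded Dixon's critical value. Of 94 groups (47 named genes in both genotypes) 6 had such a mouse, and chance gives about 1 in 20. Among the thermogenic fat genes this was Elovl3, with Sel1l-/- 1 at 5.73 beside 4.93 to 4.95 in the other Sel1l-/- mice. Without that mouse the groups still did not overlap. The others were relatives of the members. Elovl1 was lowest in WT 3 (10.63), Elovl2 lowest in WT 3 (3.57), Elovl7 lowest in WT 2 (5.17, with the next WT mouse at 7.07), Mecom lowest in Sel1l-/- 4 (6.77) and Pprc1 lowest in Sel1l-/- 3 (7.41).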

How the results depend on the processing

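No alternative gave a thermogenic fat gene past the threshold except the replicate block, which called 1 lower, Ppargc1a. Over all genes 195 were higher and 129 lower, and over the pathway lists 3 and 1. With the replicate block these became 358 and 367, and 5 and 10; besides Ppargc1a, Hadha, Thrsp and the genes named from the block, it changed no call of a named gene. With the letter of the code as a block they were 7 and 13, and 0 and 0, with its number 8 and 3, and 0 and 0. Median centring gave 119 and 154, and 1 and 2, no moderation 87 and 37, and 1 and 0, array weights 347 and 219, and 6 and 4. Without the dimmest genes, and with trend and robust moderation, 2 pathway genes were lower. Leaving out 1 array gave 66 to 244 and 31 to 140, and 0 to 5 and 0 to 2. All-gene counts fell by more than 1.5 times in both directions without any array other than WT 4 and Sel1l-/- 4. Sel1l was -0.98 with the letter, where WT 4 is the only WT mouse compared, and was not past the threshold there. It was -0.80 (adjusted p = 0.0813) with the number and -0.79 (0.0540) without moderation, past the threshold in neither. It stayed past the threshold in all 8 fits with 1 array left out.

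With the letter as a block, which leaves WT 4 against Sel1l-/- 1 and 2, the sign turned for Ppargc1a (0.17), Otop1 (-1.38), Tmem26 (0.05), Pdk4 (-0.22), Slc25a4 (0.02), Thrb (0.13), Vegfa (0.08), Ppargc1b (0.03), Dio3 (-0.20), Elovl4 (-0.17), Elovl5 (-0.02), Cited2 (0.18) and Pparg (0.18). It turned with the number for Ucp3 (0.01), Elovl6 (-0.02), Otop3 (0.01), Cited2 (0.01) and Cited4 (-0.02), with centring for Dio1 (-0.04), Cited4 (-0.00) and Ppard (-0.03), and with array weights for Ucp3 (0.00), Elovl6 (-0.09), Otop3 (0.02), Cited2 (0.13) and Cited4 (-0.04). With 1 array left out, signs turned for Dio2 (-0.08 to 0.04), Ppara (-0.05 to 0.32), Ucp3 (-0.18 to 0.04), Ppargc1b (-0.23 to 0.01), Dio1 (-0.01 to 0.03), Elovl6 (-0.12 to 0.15), Otop3 (-0.10 to 0.05), Cited2 (-0.12 to 0.21), Cited4 (-0.01 to 0.12) and Ppard (-0.03 to 0.09). The cause was not tested. Dim members such as Elovl3 and Cited1 lie near the low end of the scale, where the signal over background was not tested.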
